A study of Musca domestica with 6 samples.

Results

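Levels of 2 genes, LOC101896691 and LOC101897720, were described in whole larvae of the housefly, Musca domestica, out of 14227 genes in the deposited count table. The genes were taken by name, as those that the deposited annotation describes as endoribonuclease Dcr-1 (Dicer-1) and as protein argonaute-2. Larvae of instar 2 were given an injection of double-stranded RNA that matched either the chitinase MdCht9 (dsMdCht9, 3 libraries) or green fluorescent protein, which comes from a jellyfish and has no counterpart in the fly (dsGFP, 3 libraries). Whole bodies were frozen after 24 h. All 6 libraries therefore came from larvae that had received double-stranded RNA, and uninjected larvae were not analysed here, so no level below says what injection itself does. The labels give neither a strain nor the number of larvae in a library, and do not say that the libraries of a group came from separate pools, so each p-value below reflects library-to-library spread only, and part of that may be technical.

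Dicer enzymes cut double-stranded RNA into short fragments, and argonaute proteins carry one strand of such a fragment to transcripts that match it. In Drosophila the work is divided. Dicer-1 cuts the hairpin precursors of microRNAs (miRNAs), which are then carried mostly by argonaute-1 and lower the translation and stability of their targets, whereas Dicer-2 cuts long double-stranded RNA into small interfering RNAs (siRNAs), which are loaded into argonaute-2, an enzyme that slices matching transcripts. The second route is the one by which injected double-stranded RNA silences a gene in flies, a method called RNA interference.

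The label of LOC101896691 agreed across the deposited annotation, whose closest UniProt protein is Dcr-1 and whose protein domain is that of Dicer dimerization. The label of LOC101897720 did not. Its own description reads argonaute-2, but its closest UniProt protein is argonaute-1, and the gene functions attached to it are those of loading miRNAs. A further pair of genes, LOC101890924 and LOC101892105, is described as argonaute-2-like, and the closest UniProt protein of both is argonaute-2. Likewise LOC101893656 is also described as dcr-1, and its closest UniProt protein is an endoribonuclease named only Dicer. LOC101897720 is therefore called here the gene described as argonaute-2, with no statement of which Drosophila protein it corresponds to.

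LOC101896691 lies on the plus strand of scaffold NW_004764683.1 at positions 399 to 8466, and LOC101897720 on the plus strand of scaffold NW_004758052.1 at positions 60791 to 72562, in an assembly that the deposited table does not name. Both overlap a gene on the other strand. LOC101896691 shares 28 bases with LOC101896509, described as the 14 kDa protein of the signal recognition particle, and LOC101897720 shares 741 bases with LOC101898234, a gene without an informative description. Whether reads were counted by strand is not given in the sources used here, so reads in the shared stretches cannot be assigned with certainty. The overlapping genes were at 18.2 ± 6.16 CPM (LOC101896509) and 9.76 ± 2.48 CPM (LOC101898234) in dsMdCht9 and at 22.2 ± 5.35 and 12.6 ± 2.82 CPM in dsGFP (SD, n = 3). Over the 6 libraries the Pearson correlation of log2 CPM was 0.42 between LOC101896691 and its overlapping gene and -0.62 between LOC101897720 and its own.

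Libraries held 12876941 to 15439421 counted reads. Levels are given as CPM, which is the read count scaled to a common library size by TMM, a trimmed mean of M-values, and are not corrected for transcript length, so they are compared between libraries and not between genes. Both libraries numbered 3 stood apart on the first principal component (49.3% of the variance in log2 CPM), with scores of 48.2 and 40.2 where the other libraries had -33.5 to -3.04. Markers of fat body, gut, epidermis, muscle, haemocytes, neurons, germ line and retina were all detected. The summed level of the fat body markers ran from 84035 to 148394 CPM in dsMdCht9 and from 115257 to 153395 CPM in dsGFP. The design text of the series calls the profiles retinal, unlike the labels of the libraries. The most abundant opsin gene, LOC101900041 (opsin Rh6), had 29 to 56 reads in a library, and the summed level of the 31 genes matching retinal terms was 293 to 338 CPM in dsMdCht9 and 293 to 330 CPM in dsGFP.

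Dcr-1, the enzyme that cuts miRNA hairpins in Drosophila, was detected in every library, with group means that differed by less than their spread. It was at 40.6, 32.2 and 38.8 CPM in dsMdCht9 libraries 1, 2 and 3 and at 37.9, 30.1 and 31.3 CPM in dsGFP libraries 1, 2 and 3. The highest value was in dsMdCht9 library 1 and the lowest in dsGFP library 2, and the groups overlapped, since dsGFP library 1 lay above dsMdCht9 library 2. These values rest on 413 to 648 reads per library, and the exact Poisson 95% intervals, which cover counting error only, run from 37.5 to 43.8 CPM in the highest library and from 27.4 to 33.1 CPM in the lowest. Group means were 37.2 ± 4.42 CPM in dsMdCht9 and 33.1 ± 4.20 CPM in dsGFP (SD, n = 3).

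The difference for Dcr-1 did not pass the test. Its log2 fold change, dsMdCht9 minus dsGFP, was 0.17 ± 0.16 (SE; edgeR quasi-likelihood test, adjusted p = 0.999 over 10644 genes, unadjusted p = 0.340). As a ratio it was 1.12, with a 95% interval from 0.860 to 1.47. Within the numbers that the labels give, dsMdCht9 minus dsGFP was 0.097, 0.094 and 0.31 on the log2 scale for libraries 1, 2 and 3. Each of these 3 values lay above 0, but none of them has a test of its own and together they did not pass with the number as a block (edgeR adjusted p = 0.739). In the authors' deposited table the log2 fold change was 0.16 with a p-value of 0.451 and an adjusted p of 1.00, and the gene is not marked as significant.

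The gene described as argonaute-2 was likewise found in every library, and its dsMdCht9 libraries lay on both sides of all 3 dsGFP libraries. LOC101897720 was at 17.8, 28.8 and 24.9 CPM in dsMdCht9 libraries 1, 2 and 3 and at 21.5, 21.1 and 23.5 CPM in dsGFP libraries 1, 2 and 3. The lowest and the highest of the 6 values were thus both in dsMdCht9, in libraries 1 and 2, while the dsGFP values lay close together. Reads per library numbered 284 to 371, and the Poisson 95% intervals of those 2 libraries, 15.8 to 20.0 CPM and 25.9 to 31.8 CPM, do not meet. Group means were 23.8 ± 5.57 CPM in dsMdCht9 and 22.0 ± 1.26 CPM in dsGFP (SD, n = 3).

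The difference between treatments was smaller than the spread among the dsMdCht9 libraries. The log2 fold change of LOC101897720 was 0.11 ± 0.20 (edgeR adjusted p = 0.999, unadjusted p = 0.60), a ratio of 1.08 with a 95% interval from 0.776 to 1.51. Its sign rested on a single library, since without dsMdCht9 library 2 the log2 fold change was -0.046, and without dsMdCht9 library 1 it was 0.28. Within numbers 1, 2 and 3 the log2 difference was -0.27, 0.44 and 0.086. With the number as a block the log2 fold change was 0.087 (edgeR adjusted p = 0.919). The authors' deposited table gives a log2 fold change of 0.11, a p-value of 0.684 and an adjusted p of 1.00.

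**Figure D1:**
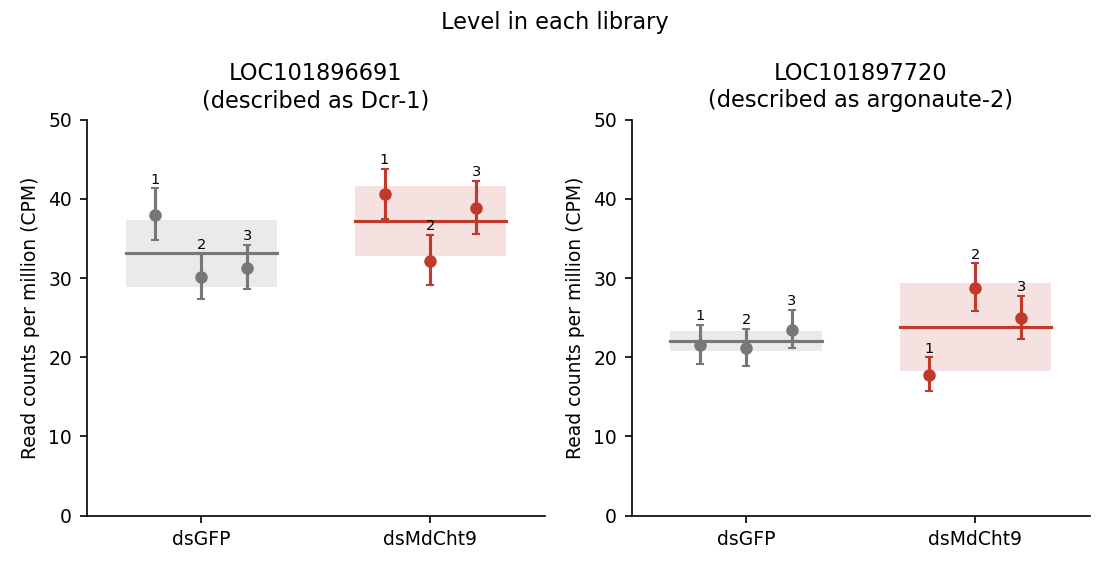
Level in CPM of LOC101896691 (left, described as Dcr-1) and LOC101897720 (right, described as argonaute-2) in each library, with library numbers above the points. Bars are exact Poisson 95% intervals for counting error, horizontal lines are group means and shaded bands are ± 1 SD over 3 libraries. The groups overlap for both genes, and the dsMdCht9 values of LOC101897720 range from 17.8 to 28.8 CPM around dsGFP values of 21.1 to 23.5 CPM.

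Of the 2 genes, 0 were called by edgeR at an adjusted p of 0.05, where 0% of the 10644 genes tested were called. In the same test 381 genes, 3.58%, had an unadjusted p under 0.05, and neither gene was among them. DESeq2 called 14 genes (0.132%) and, with the replicate number as a block, 88 genes (0.86%), and neither fit called Dcr-1 or the gene described as argonaute-2. The groups did not overlap in 8.21% of the genes tested, and they overlapped in both genes here. Scaling by library size alone moved the log2 fold changes of all genes by a median of 0.12, and gave 0.30 for LOC101896691 and 0.21 for LOC101897720.

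The 2 genes did not vary in step. Dcr-1 was at its highest in dsMdCht9 library 1, where the gene described as argonaute-2 was at its lowest. That library also had the lowest summed level of the 6 for the markers of fat body (84035 CPM), gut (11548), epidermis (19246), muscle (31392) and haemocytes (2759). It was not the lowest for the markers of neurons (569), retina (304) and germ line (30.5). Next lowest for gut (12728), epidermis (20766), muscle (32302) and haemocytes (3425) was dsMdCht9 library 3. For fat body it was dsGFP library 3 (115257). In these libraries LOC101897720 was at 24.9 and 23.5 CPM and Dcr-1 at 38.8 and 31.3 CPM. The part these marker differences play was not tested. The log2 ratio of LOC101897720 to LOC101896691 within a library, which does not depend on the scaling between libraries, was -1.18, -0.16 and -0.64 in dsMdCht9 libraries 1, 2 and 3 and -0.82, -0.51 and -0.41 in dsGFP libraries 1, 2 and 3. The groups overlapped and the mean ratios were -0.66 ± 0.51 and -0.58 ± 0.21 (SD, n = 3). Their difference, dsMdCht9 minus dsGFP, was -0.081 (two-sided exact permutation p = 0.8, where 3 against 3 libraries cannot give less than 0.1). Without dsMdCht9 library 1 the difference was 0.18, and without dsGFP library 3 it was 0.0021. Over the 6 libraries the Pearson correlation of the log2 CPM of the genes was -0.42, given as a description.

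Dcr-1 varied less over the libraries than most genes did, and the gene described as argonaute-2 lay near the middle. The coefficient of variation over all 6 libraries was 12.7% for Dcr-1 and 16.3% for LOC101897720, against a median of 17.1% over the 6421 genes with a mean of at least 10 CPM. Of those genes 30.2% had a smaller coefficient of variation than Dcr-1 and 47.0% a smaller one than LOC101897720. The highest library was 1.35 times the lowest for Dcr-1 and 1.62 times for LOC101897720. Counting error alone gives a coefficient of variation of 3.93% to 4.92% for the reads of Dcr-1, and of 5.19% to 5.93% for those of LOC101897720.

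The related Dicer and argonaute genes had larger coefficients of variation over the libraries, of 37.9% for LOC101893656, 27.2% for LOC101890924 and 35.9% for LOC101892105. LOC101893656, the other gene described as dcr-1, was at 406, 647 and 375 CPM in dsMdCht9 libraries 1, 2 and 3 and at 400, 687 and 234 CPM in dsGFP libraries 1, 2 and 3. It was high in both libraries numbered 2 and lowest in dsGFP library 3, whereas Dcr-1 had its lowest value of each group in library 2. LOC101890924, argonaute-2-like, was at 916, 1170 and 765 CPM in dsMdCht9 and at 880, 1270 and 587 CPM in dsGFP, in the same order of libraries. It too was highest in both libraries numbered 2 and lowest in dsGFP library 3. LOC101892105, also argonaute-2-like, was at 381, 305 and 287 CPM in dsMdCht9 and at 370, 443 and 115 CPM in dsGFP, and so was again lowest in dsGFP library 3. In that library LOC101892105 stood at 36.2% of its own mean over the 6 libraries, LOC101893656 at 51.1% and LOC101890924 at 63.0%, while LOC101896691 stood at 89.1% and LOC101897720 at 102% of theirs. Within dsMdCht9, library 3 also held the lowest value of each related gene. The mean of both libraries numbered 3 over that of the others was 0.57 for LOC101893656, 0.64 for LOC101890924 and 0.54 for LOC101892105. It was 1.00 for LOC101896691 and 1.09 for LOC101897720. Both libraries numbered 3 are set apart by the first principal component, and the part this plays in the values was not tested.

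**Figure D2:**
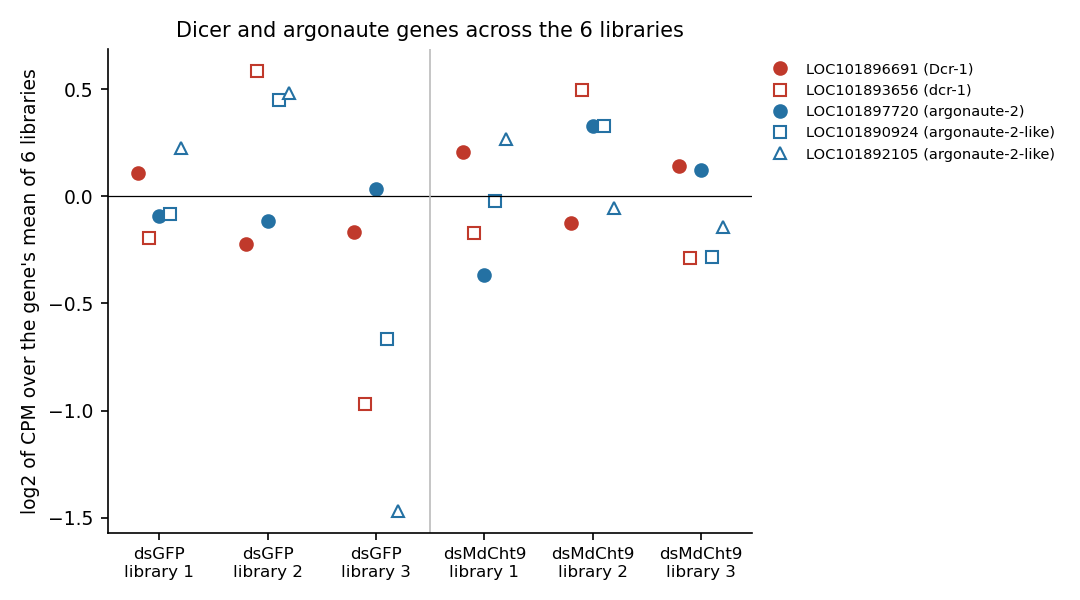
Log2 of the CPM of each gene over its own mean of the 6 libraries, for the genes described as Dcr-1 (red) and argonaute-2 (blue), with filled circles for LOC101896691 and LOC101897720 and open symbols for the related genes. In dsGFP library 3 the 3 open symbols lie at -0.67 to -1.47 and the filled circles at -0.17 and 0.034.

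None of these related genes differed between the treatments beyond the spread of the libraries. The log2 fold change was 0.11 ± 0.41 for LOC101893656, 0.059 ± 0.31 for LOC101890924 and 0.069 ± 0.46 for LOC101892105 (edgeR adjusted p = 0.999 for each). The sign of all 3 turned with 1 library or another left out: LOC101893656 then lay between -0.19 and 0.58, LOC101890924 between -0.17 and 0.37, and LOC101892105 between -0.32 and 0.42. With the replicate number as a block LOC101892105 was at 0.27. Within number 3, dsMdCht9 minus dsGFP was 0.68 for LOC101893656 and 1.32 for LOC101892105. The 95% intervals with all 6 libraries, -0.86 to 1.09, -0.67 to 0.79 and -1.04 to 1.18, are wider than those of the 2 genes described first, which were -0.22 to 0.55 for Dcr-1 and -0.37 to 0.59 for LOC101897720. In all, 4 within-library ratios were tested, each by the two-sided exact permutation test over 6 libraries. That of LOC101896691 to LOC101893656 differed by -0.039 between the treatments on the log2 scale (exact p = 1), that of LOC101897720 to LOC101890924 by -0.022 (exact p = 1) and that of LOC101897720 to LOC101892105 by -0.19 (exact p = 0.8). The Benjamini-Hochberg adjusted value was 1 for all 4. Reads that match several of these genes equally well could have been assigned in ways that the sources used here do not give.

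The rest of the small RNA machinery was followed through 4 lists of genes matched by description, with levels given as mean CPM ± SD (n = 3) in dsMdCht9 and then in dsGFP. By their descriptions LOC101893656 was placed in the miRNA list and LOC101897720 in the siRNA list. Which Drosophila proteins these genes correspond to was not settled here. The miRNA list held 8 genes, of which 7 were tested. Of these 7, 0 passed, where 0 of the 10644 genes tested did. On the log2 fold change 6 lay above 0 (7 by library size alone) and 1 below. The median was 0.058 against -0.0033 over all genes tested, of which 49.5% lay above 0. By library size alone, 7201 of the 10644 genes tested lay above 0, with a median of 0.12. Without both libraries numbered 3, 5 genes of the list lay above 0 and 2 below, with a median of 0.035. In none of the 7 were the groups free of overlap, where they did not overlap in 8.21% of all genes tested. LOC101888961, described as a probable subunit of the RISC-loading complex and closest to a double-stranded RNA-binding activator protein, the kind of partner that helps a Dicer hold its substrate, had group means of 28.2 ± 2.66 CPM (dsMdCht9) and 24.5 ± 2.35 CPM (dsGFP). At 0.20 ± 0.15 it had the highest log2 fold change of the list (edgeR adjusted p = 0.999). The nuclear enzymes that release miRNA hairpins lay near 0, with LOC101895496 (ribonuclease 3, Drosha in flies) at 5.69 ± 1.33 and 5.59 ± 1.06 CPM and LOC101893834 (DGCR8, known in flies as Pasha, the partner of Drosha) at 16.9 ± 1.54 and 16.3 ± 1.04 CPM. Exportin-5 (LOC101895229), which carries the hairpins out of the nucleus, was at 37.8 ± 2.59 and 36.3 ± 4.27 CPM. Gawky (LOC101888780), the GW182 protein that binds argonaute and recruits the enzymes that remove the poly(A) tail, was at 133 ± 5.31 and 138 ± 4.82 CPM, which is -0.058 ± 0.14 as a log2 fold change. LOC101891419, described as Gawky-like, had 1 read in all 6 libraries together and was not tested. It has no closest UniProt protein, and its protein domain is CBM_14 where that of LOC101888780 is M_domain. The description alone places LOC101891419 in the list.

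The siRNA list held 13 genes, all tested, and 0 passed, where 0 of the 10644 genes tested did. Of these 13, 10 had a log2 fold change above 0 by library size alone, where 7201 of the 10644 genes tested did. In the main fit 7 lay above 0 and 6 below, with a median of 0.040. Without both libraries numbered 3, 6 lay above 0 and 7 below, with a median of -0.013. Over all genes, 5523 of the 10605 tested in that setting lay above 0, with a median of 0.015. In 0 of the 13 were the groups free of overlap, where they did not overlap in 8.21% of all genes tested. Besides the 3 genes described as argonaute-2 or argonaute-2-like, it held LOC101893186, the small RNA methyltransferase that protects siRNAs (HEN1), with means of 10.6 ± 3.15 CPM (dsMdCht9) and 10.3 ± 2.98 CPM (dsGFP). Translin (LOC101899062) and translin-associated protein X (LOC101887618), which in Drosophila form a nuclease that removes the discarded strand from argonaute-2, were at 13.7 ± 1.61 and 15.5 ± 1.53 CPM and at 9.43 ± 2.03 and 9.95 ± 1.40 CPM. Tudor-SN (LOC101891989), a nuclease found in the silencing complex, was at 546 ± 93.9 and 634 ± 131 CPM, which is -0.22 ± 0.22 as a log2 fold change. LOC101895649, related to FMR1, a translational repressor that binds argonaute-2 in Drosophila, was at 70.3 ± 4.57 and 72.2 ± 4.26 CPM. The helicase Rm62 (p62) has 3 matches, LOC101887833 at 451 ± 38.9 and 430 ± 12.9 CPM, LOC101890343 at 97.9 ± 15.2 and 91.3 ± 8.66 CPM and LOC101891817 at 25.4 ± 0.305 and 26.3 ± 0.859 CPM. The widest difference of the list was in LOC101892393, described as a homolog of the serrate RNA effector molecule (Ars2, a nuclear partner of both small RNA routes in Drosophila), at 4.08 ± 1.32 and 6.47 ± 1.48 CPM. On the log2 scale this was -0.66 ± 0.32 (edgeR adjusted p = 0.999, unadjusted p = 0.0737). The second gene of that description, LOC101895569, lay the other way, at 105 ± 19.2 and 92.2 ± 9.92 CPM and a log2 fold change of 0.19 ± 0.18. Of the pair only LOC101895569 has a closest UniProt protein, a serrate homolog, and the ARS2 protein domain. For LOC101892393 the description alone places it here. No gene described as Dicer-2, R2D2, loquacious or Sid-1 was matched by its description, which does not show that the fly lacks one.

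**Figure D3:**
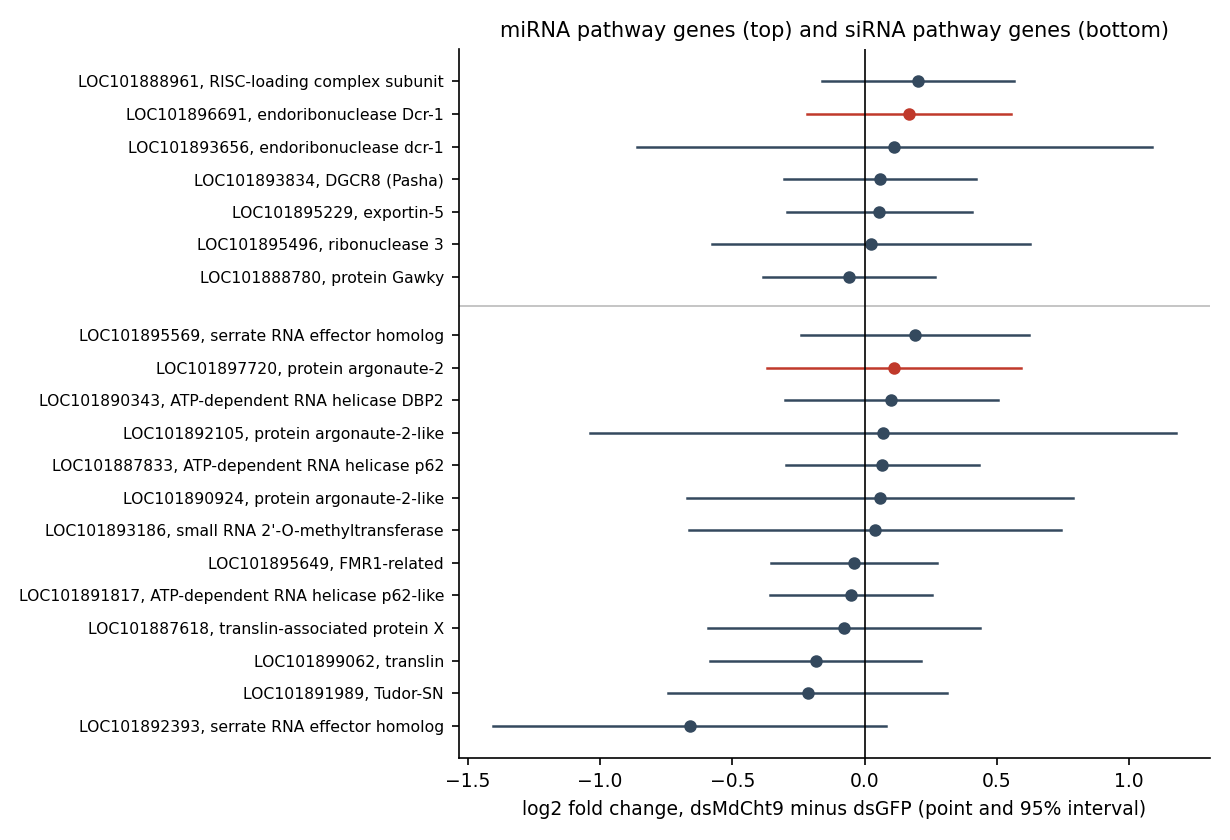
Log2 fold change, dsMdCht9 minus dsGFP, with its 95% interval from edgeR, for the 7 tested genes of the miRNA list (top) and the 13 of the siRNA list (bottom). LOC101896691 and LOC101897720 are in red, and every interval crosses 0.

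The PIWI branch of the argonaute family guards the germ line against transposons. Its members here were piwi (LOC101900202) with means of 48.1 ± 5.41 CPM (dsMdCht9) and 48.2 ± 4.63 CPM (dsGFP), aubergine (LOC101899774) at 19.8 ± 4.23 and 18.9 ± 3.37 CPM, and argonaute-3 (LOC101895955) at 6.06 ± 1.24 and 6.33 ± 0.163 CPM. Vasa (LOC101887752), a germ line helicase, was at 32.6 ± 4.13 and 31.4 ± 8.41 CPM. With vasa included, the 4 germ line marker genes summed to 30.5 to 37.9 CPM in dsMdCht9 and 23.9 to 40.3 CPM in dsGFP. Vasa alone of the 4 passed the filter on low counts and made up nearly all of that sum. In bulk tissue, fewer cells of a type and less RNA per cell cannot be told apart. Of the 25 genes of the piRNA list, 24 were tested and 0 passed, where 0 of the 10644 genes tested did. Of these 24, 12 lay above 0 and 12 below, with a median of 0.013. By library size alone 22 lay above 0 and 2 below, where 7201 of the 10644 genes tested lay above 0. The groups did not overlap in 2 of the 24, where 8.21% of all genes tested did not overlap. LOC101900531, described as tudor domain-containing protein 5, was at 3.10 ± 0.950 and 4.93 ± 0.425 CPM, or -0.66 ± 0.28 on the log2 scale (edgeR adjusted p = 0.999, unadjusted p = 0.0520). LOC101894940, closest to a Tudor protein, was at 7.98 ± 0.697 and 5.96 ± 0.823 CPM, or 0.42 ± 0.19 on the log2 scale (unadjusted p = 0.0673). The gene of the list with most reads was LOC101895322, described as cutoff-like, at 744 ± 151 and 756 ± 299 CPM.

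Cells of Drosophila take up double-stranded RNA by endocytosis, and 7 genes of that route were matched and tested. Of these 7, 0 passed, where 0 of the 10644 genes tested did. In log2 fold change 4 lay above 0 and 3 below, with a median of 0.041. By library size alone 6 lay above 0, where 7201 of the 10644 genes tested did. The proteolipid subunit of the vesicle proton pump (LOC101895035), which acidifies endosomes and had most reads of the list, had means of 2442 ± 245 CPM (dsMdCht9) and 2136 ± 292 CPM (dsGFP), which gave 0.19 ± 0.19 on the log2 scale. Rab7 (LOC101898590), a switch of late endosomes, was at 193 ± 34.4 and 172 ± 31.5 CPM.

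The genes whose levels followed each of the 2 most closely over the 6 libraries were found among the genes with a mean of at least 10 CPM, of which 6420 were compared with each. These coefficients are the highest of 6420 over only 6 libraries that share one scaling, and are given as a description. For Dcr-1 the 5 highest Pearson correlations of log2 CPM included those with LOC101901628 (a nuclear envelope phosphatase) at 0.98, LOC101899504 (UDP-glucuronosyltransferase) at 0.97, LOC101896040 (alpha subunit of casein kinase II) at 0.96 and LOC101899926 (a cleavage stimulation factor subunit) at 0.96. The lowest was with LOC101890283 (EFR3 homolog) at -0.98. For LOC101897720 the 5 highest were with LOC101901643 (a probable cytochrome P450) at 0.99, LOC101888022 and LOC101887834 (both uncharacterized) at 0.98 and 0.97, LOC101901237 (heat shock factor) at 0.97 and LOC101897867 (a Methuselah-like receptor) at 0.97. Its lowest was with LOC101893625 (a mitochondrial dynamin-like protein) at -0.99. Among the 16 other genes of the miRNA and siRNA lists at that level, the coefficients ran from -0.60 to 0.31 for Dcr-1 and from -0.42 to 0.92 for LOC101897720, for which the highest was with LOC101893834 (DGCR8).

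**Figure D4:**
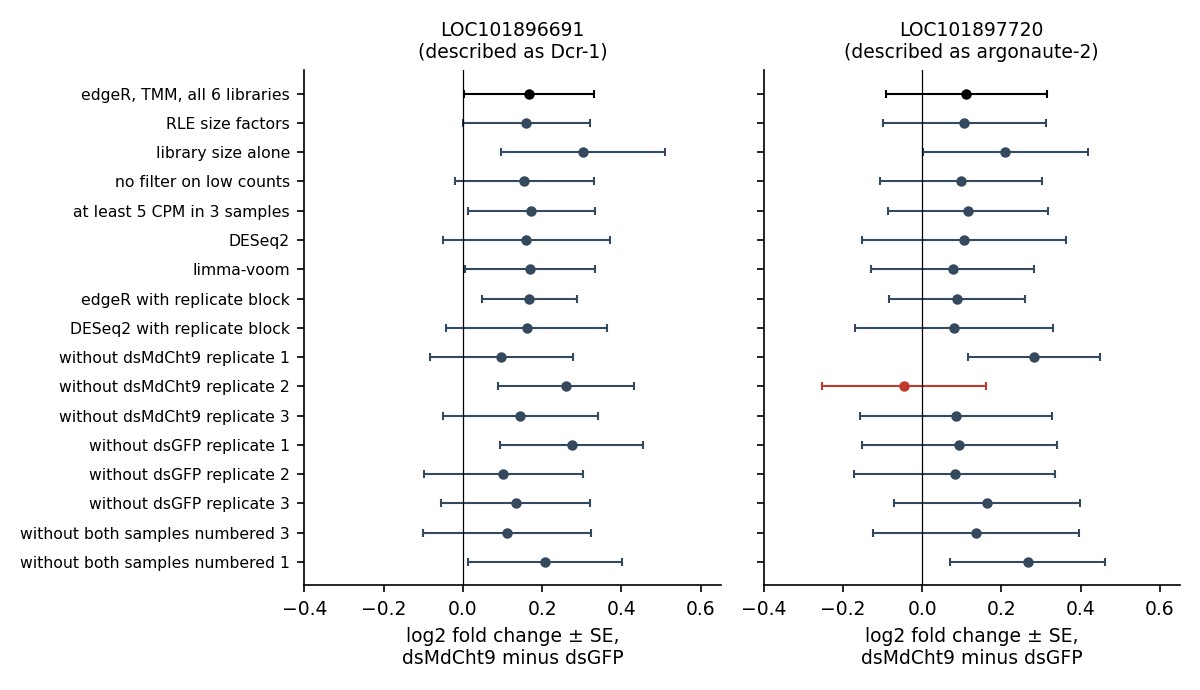
Log2 fold change ± SE, dsMdCht9 minus dsGFP, of LOC101896691 (left) and LOC101897720 (right) under each scaling, filter, test and set of libraries tried. The values run from 0.097 to 0.30 for LOC101896691 and from -0.046 to 0.28 for LOC101897720, and the value below 0, in red, is the one without dsMdCht9 library 2.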

How the data were processed

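RNA of whole larvae was sequenced in 6 libraries, made from 3 µg of Trizol-extracted RNA each per the labels' protocols, and grouped by their titles. The deposited table holds raw read counts per gene for each library, per the file headers. Per the submitters' processing notes, the tools were HTSeq 0.6.0, HISAT2 2.1.0 and StringTie 1.3.2d, with no roles stated. Not given in the sources used here: genome build, use of strand, and treatment of reads with several matches. The authors' deposited table also holds a mean normalized signal over the 6 samples, a fold change as a ratio, its log2 value, and the unadjusted and adjusted p-values. The authors' mean signal equals the mean of counts over median-of-ratios size factors to within 5.2e-10.

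In R 4.3.3, filterByExpr left 10644 genes, which were scaled by TMM and tested two-sided in edgeR 4.0.16 by quasi-likelihood (robust), with Benjamini-Hochberg adjustment over all genes tested and a threshold of 0.05. Correlations and ratios used log2 CPM with a prior count of 2. DESeq2 1.42.0 and voom of limma 3.58.1 were alternatives. The fit was tested on simulated data, and the outcome is not reported here. Pairs of libraries of one group differed far beyond sampling noise (chi-square of 33.6 to 143.5 per degree of freedom), so none was counted as a copy. Deviations from the group means correlated by 0.24, 0.39 and 0.65 between libraries of the same number 1, 2 and 3. The numbers were therefore used as pairs in alternative fits, while the main fits, intervals and permutation tests used the group only. However, dsMdCht9 library 2 also correlated by 0.32 with dsGFP library 1, and the labels do not say what a number marks.

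The 2 genes and the 4 lists were chosen with earlier results of these data known. Named were both genes, the genes of the miRNA and siRNA lists, the 2 genes of smallest p and the most abundant gene of the piRNA and uptake lists, overlapping genes, and the 5 closest and the farthest gene by correlation, of which 1 is not reported here. The PIWI genes and vasa were added after their values were seen. Lists matched fixed terms in the gene description or, failing that, in that of the closest UniProt protein. RefSeq's gene table (assembly Musca_domestica.polishedcontigs.V.1.1) held 12237 of the 14227 symbols, both genes among them, and was used for nothing else. No sequences were used here.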

Additional observations from a re-analysis of the deposited data

How the results depend on the processing

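Under 16 alternatives each, the log2 fold change of LOC101896691 kept its sign and lay between 0.097 and 0.30 (adjusted p from 0.739 to 1.00), and that of LOC101897720 lay between -0.046 and 0.28 (adjusted p from 0.903 to 1.00). Neither was called in any of them. With 1 library left out the ranges were 0.097 to 0.28 and -0.046 to 0.28, and the value of LOC101897720 below 0 was the one without dsMdCht9 library 2, where the cause was not tested. The alternatives without both libraries numbered 1 (0.21 and 0.27) were chosen after seeing the data. The within-library ratio of the 2 genes ranged from -0.33 to 0.18 with 1 library left out and was 0.18 without dsMdCht9 library 1 and 0.0021 without dsGFP library 3. It was -0.081 as the mean of paired differences within numbers (exact sign-flip p = 0.75, where 3 pairs cannot give less than 0.25).

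With the replicate block edgeR gave 0.17 ± 0.12 for LOC101896691 and 0.087 ± 0.17 for LOC101897720 (SE). It called 0 genes in the lists and 0 over the whole table, with 888 at an unadjusted p under 0.05. The block changed no call for the genes named here. Over the whole table DESeq2 called 14 genes and, with the replicate block, 88, against 0 in edgeR, and the cause was not tested. No alternative called a gene of the 4 lists, and the alternatives called 0 to 88 genes over the whole table. An unadjusted p under 0.05 was found for 0 to 2 genes of the lists and for 229 to 888 over the whole table. The 2 genes had 284 to 648 reads per library.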
